A study of Mus musculus with 12 samples.

Results

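The mitochondrial ribosomal protein genes encode the proteins of the ribosome that works inside mitochondria. Members were all genes of the deposited count table whose identifier belongs to a mouse protein-coding gene with a symbol made of Mrpl or Mrps, a number and at most 1 further letter. The rule took 78 of the 57186 genes in the table, and all 78 were among the 19255 genes with enough counts to be tested. The rule itself uses no measured value, but the gene family was chosen with earlier results of these data known. Of the 78, 51 encode proteins of the large subunit and 26 of the small subunit. The remaining gene, Mrps36, carries a ribosomal symbol, but its protein is a component of the alpha-ketoglutarate dehydrogenase complex.

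The study sequenced poly(A) RNA of 12 mouse tumours that had formed from 4T1, a mammary carcinoma cell line that stands in for triple-negative breast cancer. The 6 Tn tumours came from 4T1 cells in which Cosmc (C1galt1c1) had been silenced with CRISPR/Cas9. Cosmc helps fold the galactosyltransferase that elongates O-linked sugar chains, and cells that lack it display the truncated Tn antigen. The 6 WT tumours came from the parental line, so that every tumour shares the 4T1 background and the groups differ in the label by the silencing alone. The labels do not say whether the Tn line is 1 clone, and they give no tumour size, animal age or time of growth. Tissue was taken whole, so each library holds RNA of carcinoma cells together with host cells, and fewer cells of a type and less RNA per cell cannot be told apart.

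Mitochondria keep a small genome that encodes a few subunits of the respiratory chain together with the RNAs of their own ribosome. All proteins of that ribosome are encoded in the nucleus, made in the cytosol and imported. Some descend from bacterial ribosomal proteins, and others have no bacterial counterpart and were added in the mitochondrial lineage. Many promoters of nuclear genes for mitochondrial proteins hold sites of the factors NRF1, GABP (an ETS family factor), YY1 and SP1.

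Library totals ran from 122630235 to 156880766 counts in Tn tumours and from 113575859 to 138852648 counts in WT tumours. C1galt1c1 was at 10.8 to 12.9 CPM (counts scaled to library size) in Tn tumours and at 15.5 to 23.002 CPM in WT tumours, with a log2 fold change of -0.80 ± 0.11 (SE) and an adjusted p of 0.000201. Throughout, fold changes are Tn over WT on the log2 scale and p-values come from edgeR's quasi-likelihood test with Benjamini-Hochberg adjustment over all 19255 genes. A gene is said to be higher, lower, to rise or to fall where the adjusted p was under 0.05, and the smallest raw count of any member in any tumour was 700.

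Between Tn and WT tumours, 22 of the 78 genes were higher in Tn tumours (28.2%) and 3 were lower (3.85%), while 53 did not pass the test. The background over all genes tested was 19.5% higher and 17.4% lower. Among the 9512 genes whose mean level fell within the range of the members, 7.53 to 187 CPM, it was 25.7% higher and 17.1% lower. The share of members that rose thus lay near that of genes of similar level, and the share that fell lay below it. The median log2 fold change of the 78 genes was 0.17, with quartiles of 0.03 and 0.25, against 0.01 over all genes tested and 0.06 over the genes of similar level. The log2 fold change was above 0 for 62 of the 78 genes (79.5%), whereas the background was 51.2% over all genes and 56.6% over the genes of similar level. With WT tumours 1 and 2 left out together, an alternative chosen after seeing the data, the median was 0.10, with 19 genes higher, 3 lower and 58 above 0. Over all genes tested, 3363 were higher and 2901 lower in that setting.

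**Figure D1:**
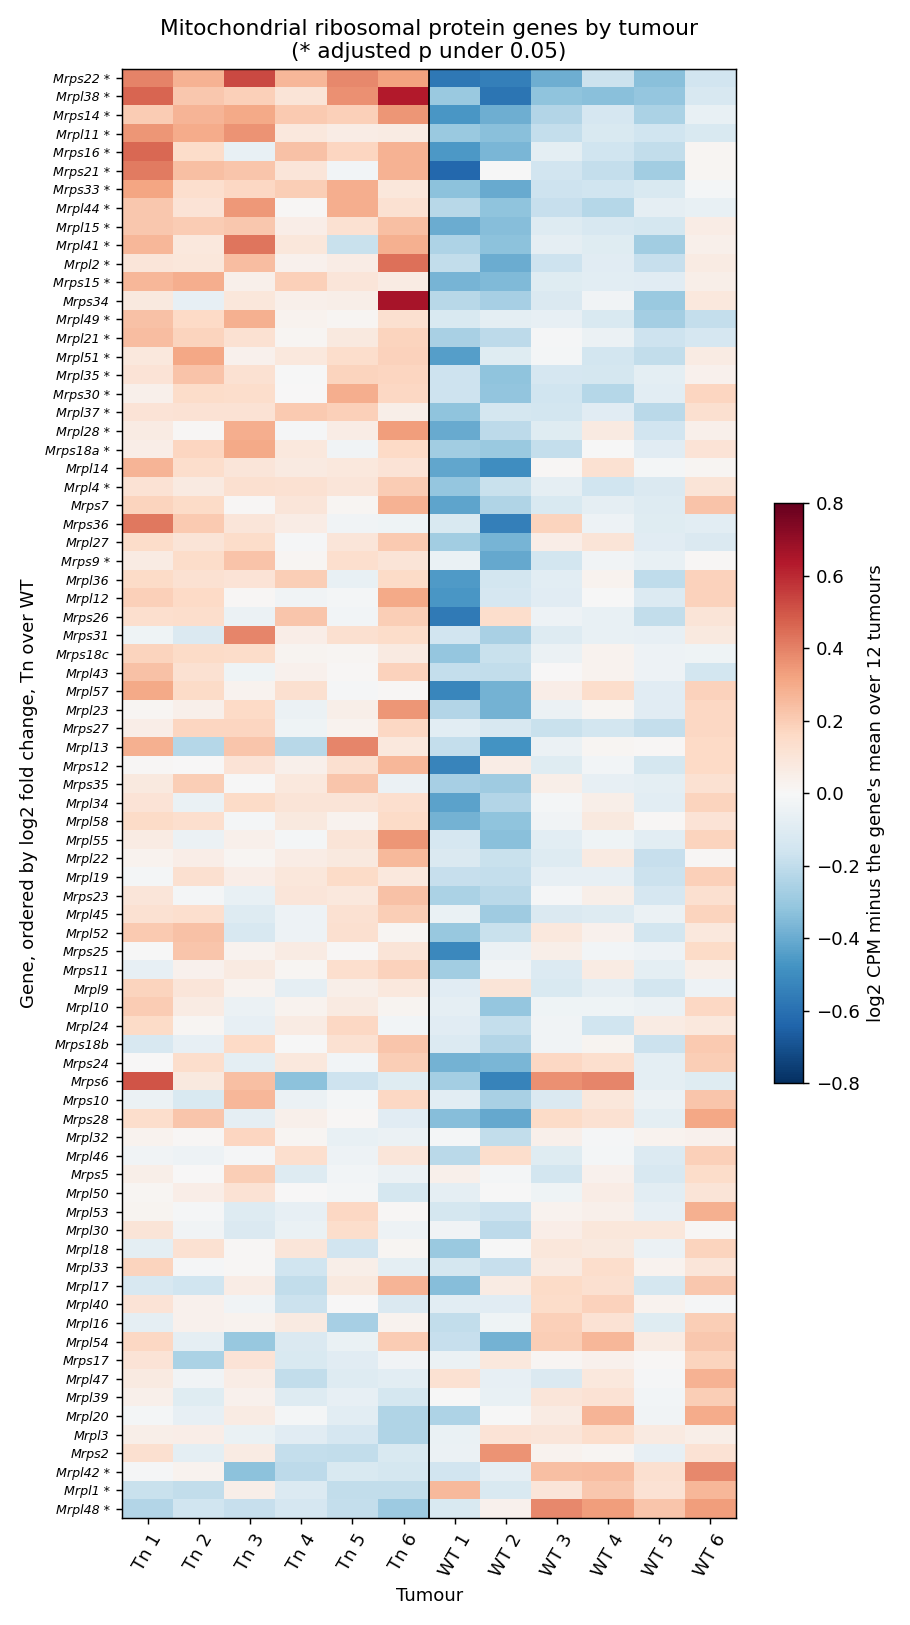
Log2 CPM of the 78 mitochondrial ribosomal protein genes (rows, ordered by log2 fold change, Tn over WT) in the 6 Tn and 6 WT tumours (columns), each minus the mean of the gene over the 12 tumours, in log2 units on a colour scale from -0.8 to 0.8. An asterisk marks the 22 genes higher and the 3 genes lower in Tn tumours, and the columns of WT tumours 1 and 2 hold the lowest value of 61 genes. The share of other genes lowest in these tumours was not computed.

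Single tumours differed more within the WT group than within the Tn group. The mean log2 CPM over the 78 genes was 5.04 ± 0.04 in Tn tumours, with single tumours from 4.98 to 5.09, and 4.89 ± 0.13 in WT tumours, with single tumours from 4.73 to 5.06 (SD, n = 6 each). The summed level was 2987 ± 104 CPM in Tn tumours and 2684 ± 237 CPM in WT tumours (SD, n = 6 each). The ranges overlapped: WT tumour 6 at 5.06 lay above 4 of the 6 Tn tumours in mean log2 CPM. WT tumours 1 and 2 were the lowest, at 4.73 and 4.76. Of the 78 genes, 67 had their lowest value in a WT tumour, 29 of them in WT tumour 1 and 32 in WT tumour 2, and 59 had their highest value in a Tn tumour. WT tumour 6 held the highest value of 14 genes, as many as Tn tumour 1. The shares of other genes with such extremes were not computed, so these counts are a description and may not be particular to the members.

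Within groups the members varied less, at the median, than genes of similar level. The median standard deviation of log2 CPM within groups was 0.14 over the 78 genes, against 0.18 over the genes of similar level, and 63 of the 78 genes lay below that value of 0.18. After each group's mean was subtracted, a gene's level over the 12 tumours correlated with the mean of the other members with a median Pearson r of 0.65, and 58 of the 78 had an r above 0.5. These values share libraries and scaling, and they are a description. Mrpl15, a large subunit protein with a bacterial counterpart, followed the others most closely at 0.96. Mrpl9 at -0.02, Mrps2 at 0.01 and Mrpl49 at 0.02 did not follow them.

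The promoters of the 4 genes with the smallest p that have an entry in the RefSeq promoter table (build GRCm38.p6) are printed here. They show the sequence around the start of these genes. Each window runs past the gene start annotated in the count table. For Mrpl11 that start is at base 5012175 of chr19, so most of its window lies inside the annotated gene. Each is 300 bases, 5′ to 3′ on the strand of the gene, and was found at 1 place in GRCm39. Mrps22 is at chr9:98483683-98483982 on the minus strand, Mrps14 at chr1:160022535-160022834 on the plus strand, Mrpl11 at chr19:5012084-5012383 on the plus strand, and Mrpl44 at chr1:79753485-79753784 on the plus strand. Capitals mark matches to the searched motifs on either strand.

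Mrps22: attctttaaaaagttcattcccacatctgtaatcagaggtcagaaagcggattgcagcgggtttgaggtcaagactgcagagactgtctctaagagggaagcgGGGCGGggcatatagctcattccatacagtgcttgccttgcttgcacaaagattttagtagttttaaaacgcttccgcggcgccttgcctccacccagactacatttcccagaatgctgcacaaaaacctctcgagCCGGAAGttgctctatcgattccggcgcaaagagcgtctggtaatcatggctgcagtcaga

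Mrps14: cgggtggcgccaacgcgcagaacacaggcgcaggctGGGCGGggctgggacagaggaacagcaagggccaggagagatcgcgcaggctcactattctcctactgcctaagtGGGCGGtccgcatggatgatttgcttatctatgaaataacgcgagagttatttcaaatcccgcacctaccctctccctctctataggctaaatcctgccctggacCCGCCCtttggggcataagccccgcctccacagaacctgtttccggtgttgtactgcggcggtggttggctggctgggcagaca

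Mrpl11: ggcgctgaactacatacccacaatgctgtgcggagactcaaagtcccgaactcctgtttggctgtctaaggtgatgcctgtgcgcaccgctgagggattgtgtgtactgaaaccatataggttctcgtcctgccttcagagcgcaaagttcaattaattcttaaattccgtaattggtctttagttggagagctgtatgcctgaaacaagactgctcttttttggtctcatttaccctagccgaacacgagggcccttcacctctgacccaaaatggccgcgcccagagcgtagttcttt

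Mrpl44: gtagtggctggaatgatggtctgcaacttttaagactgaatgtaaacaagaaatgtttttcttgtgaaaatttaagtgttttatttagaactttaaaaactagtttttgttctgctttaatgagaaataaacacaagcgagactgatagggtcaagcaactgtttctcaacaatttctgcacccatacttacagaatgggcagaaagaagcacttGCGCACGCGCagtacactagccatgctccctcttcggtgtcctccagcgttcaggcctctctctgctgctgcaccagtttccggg

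The motifs searched on both strands were GCGCA, any base and then GCGC for NRF1, CCGGAAG for ETS factors such as GABP, AAGATGGC for YY1, GGGCGG for SP factors and CACGTG for the E-box bound by MYC and MAX. No motif is contained in another. The Mrps22 promoter held the SP motif from base 104 and the ETS motif from base 240, the Mrps14 promoter held the SP motif from bases 37, 112 and 217, and the Mrpl44 promoter held the NRF1 motif from base 216. None of these letter strings occurs in the window of Mrpl11, which covers little sequence upstream of the annotated gene.

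Of the 78 genes, 69 matched the table by symbol, and Mrpl4, Mrpl13, Mrpl15, Mrpl19, Mrpl38, Mrpl54, Mrps28, Mrps34 and Mrps35 did not. The ETS motif was in 37.7% of the 69 promoters, against 17.9% of the promoters of 11505 tested coding genes. The YY1 motif was in 17.4% of the members' promoters and in 4.72% of those of the tested coding genes, and the NRF1 motif in 18.8% and 9.95%. The SP motif was in 49.3% of the members' promoters, below the 65.4% of tested coding genes, and the E-box in 7.25% and 11.1%. Over all 32851 promoters of the table the shares were 8.86% for ETS, 2.75% for YY1, 4.60% for NRF1, 35.7% for SP and 7.15% for the E-box.

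The motifs did not part the genes that rose from the other members in these counts. Of the 19 promoters of genes higher in Tn tumours, 7 held the ETS motif, 4 the YY1 motif, 3 the NRF1 motif, 10 the SP motif and 2 the E-box. Of the 50 other promoters, 19 held the ETS motif, 8 the YY1 motif, 10 the NRF1 motif, 24 the SP motif and 3 the E-box. These are matches of letters and say nothing of binding.

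Mrps22, a small subunit protein with no bacterial counterpart whose human gene is mutated in a mitochondrial disease, had the largest fold change of the 78. The gene lies at chr9:98470783-98483713 (GRCm39, minus strand). Its level was 21.8 CPM in the lowest, 23.2 in the median and 26.1 in the highest Tn tumour, against 12.2, 14.1 and 16.3 CPM in the lowest, median and highest WT tumour. All Tn tumours lay above all WT tumours. The ratio of the means was 1.64, with a log2 fold change of 0.72 ± 0.09 (SE) and an edgeR adjusted p of 0.000137.

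Mrpl38, a protein of the central protuberance of the large subunit with no bacterial counterpart, lies at chr11:116022643-116029694. Its lowest, median and highest levels were 77.5, 88.3 and 112 CPM in Tn tumours, against 48.0, 57.8 and 65.9 CPM in WT tumours. The groups did not overlap, and Tn tumours 1 and 6 were the highest. The log2 fold change was 0.67 ± 0.10 (SE; edgeR adjusted p = 0.000367).

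Mrps14, a small subunit protein with a bacterial counterpart, lies at chr1:160022785-160029740. It was at 59.9, 61.9 and 67.0 CPM in the lowest, median and highest Tn tumour, and at 37.9, 44.2 and 50.3 CPM in WT tumours. The groups did not overlap, and the Tn tumours were close to each other, with an SD of 2.85 CPM. The log2 fold change was 0.51 ± 0.07 (SE; edgeR adjusted p = 0.0003).

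Mrpl11 belongs, with Mrpl10 and Mrpl12, to the stalk of the large subunit, the region where translation factors bind. Mrpl11 was at 40.8, 44.9 and 50.3 CPM in the lowest, median and highest Tn tumour, and at 31.0, 34.7 and 36.1 CPM in WT tumours, with no overlap. Tn tumours 1, 2 and 3, at 48.2 to 50.3 CPM, stood above the other Tn tumours, at 40.8 to 41.5 CPM. Its log2 fold change was 0.41 ± 0.08 (SE; edgeR adjusted p = 0.00139). Neither of the other stalk genes passed the test. Mrpl12, which also binds the mitochondrial RNA polymerase, ranged from 86.0 to 108 CPM in Tn tumours and from 63.5 to 99.6 CPM in WT tumours (log2 fold change 0.20, adjusted p = 0.125), and Mrpl10 had a log2 fold change of 0.11 (adjusted p = 0.275).

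Mrpl44, a large subunit protein with no bacterial counterpart and a disease gene in humans, was at 26.3, 29.3 and 33.2 CPM in the lowest, median and highest Tn tumour, and at 20.8, 22.7 and 25.04 CPM in WT tumours. Mrpl49, also without a bacterial counterpart, was at 43.4, 47.4 and 52.2 CPM in Tn tumours and at 35.6, 39.5 and 41.1 CPM in WT tumours. Mrpl21 was at 32.8, 35.95 and 38.3 CPM in Tn tumours and at 27.0, 29.2 and 32.1 CPM in WT tumours. None of these genes had overlapping groups, with log2 fold changes of 0.37 for Mrpl44, 0.28 for Mrpl49 and 0.27 for Mrpl21 (edgeR adjusted p = 0.00252, 0.00399 and 0.00494). Each shares some exon bases with another gene, 7.66% of Mrpl44, 4.85% of Mrpl49 and 5.82% of Mrpl21, and strand was not used in the counting.

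Mrpl15 was at 58.0, 64.6 and 66.0 CPM in the lowest, median and highest Tn tumour, and at 42.5, 50.9 and 58.3 CPM in WT tumours. WT tumour 6 lay just above the lowest Tn tumour, and the gene rose by 0.34 ± 0.08 on the log2 scale (SE; edgeR adjusted p = 0.00427).

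**Figure D2:**
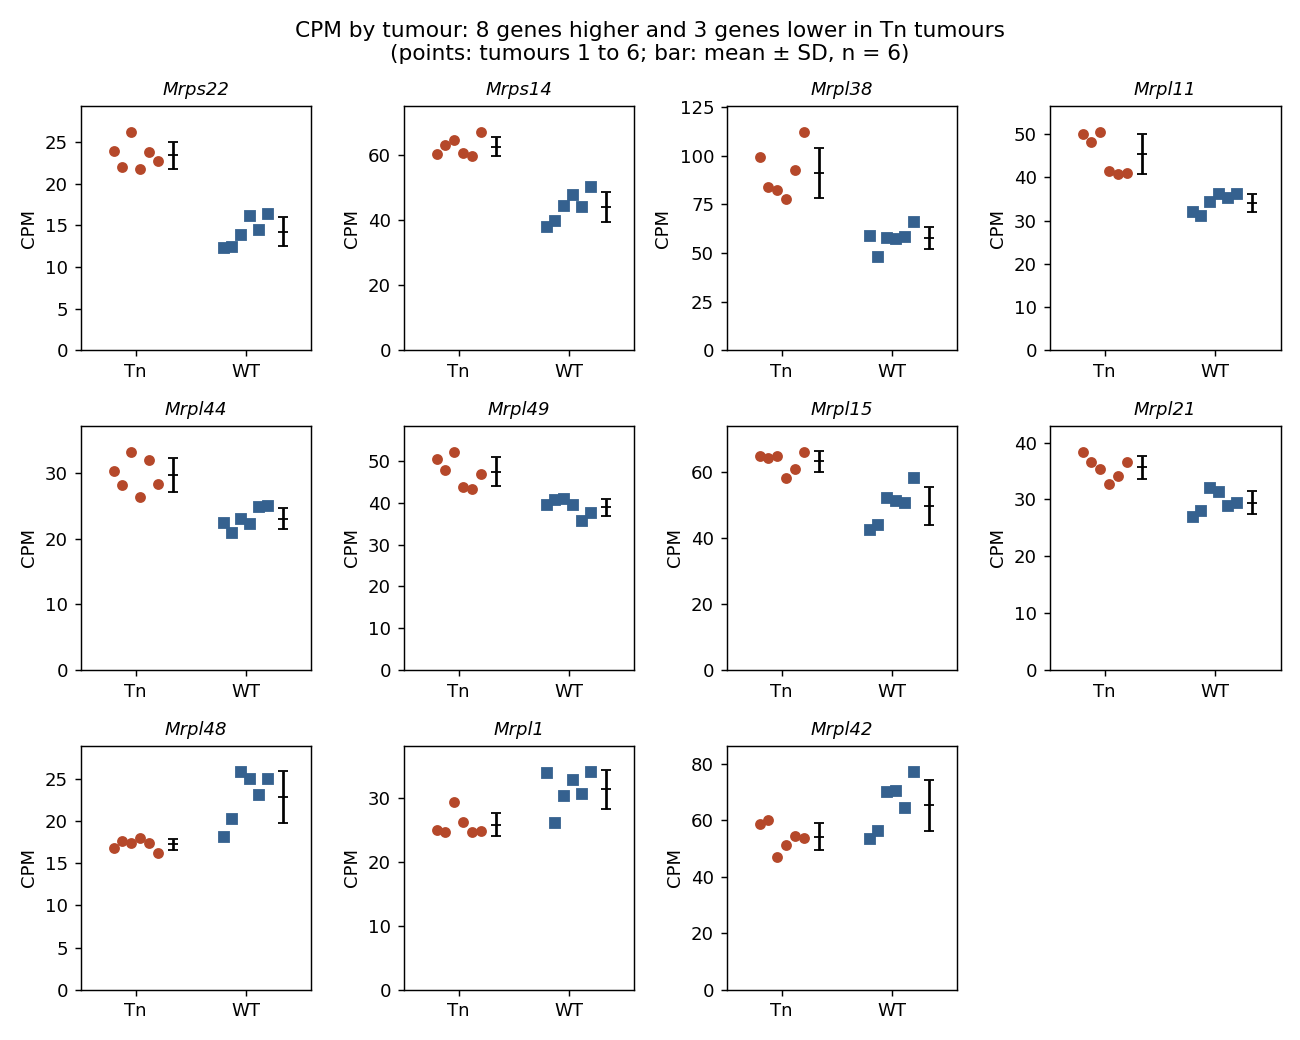
CPM of the 8 genes with the smallest p among those higher in Tn tumours and of the 3 genes lower in Tn tumours (vertical axes from 0). Points are tumours 1 to 6 of each group, Tn left of WT, and bars give the mean and SD (n = 6). Mrps22 sits at 21.8 to 26.1 CPM in Tn tumours and at 12.2 to 16.3 CPM in WT tumours, whereas Mrpl48 sits at 16.2 to 18.01 CPM in Tn tumours and at 18.2 to 25.9 CPM in WT tumours.

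In 9 of the 78 genes (11.5%) every Tn tumour lay above every WT tumour, namely Mrps22, Mrpl38, Mrps14, Mrpl11, Mrpl44, Mrpl49, Mrpl21, Mrps33 and Mrps9. The background was 8.81% of all genes tested and 12.3% of the genes of similar level, so this share does not stand out. Mrps33 is a small subunit protein with no bacterial counterpart and Mrps9 a small subunit protein with one, and their log2 fold changes were 0.39 and 0.22. With Mrpl15, whose groups overlapped, the other genes higher in Tn tumours were Mrps16, Mrps21, Mrpl41, Mrpl2, Mrps15, Mrpl51, Mrpl35, Mrps30, Mrpl37, Mrpl28, Mrps18a and Mrpl4, with log2 fold changes from 0.24 to 0.41.

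The 3 genes that fell all encode large subunit proteins, as do 51 of the 78 genes, and a difference between subunits was not tested. Mrpl48, of the central protuberance, was at 16.2, 17.4 and 18.01 CPM in the lowest, median and highest Tn tumour, and at 18.2, 24.1 and 25.9 CPM in WT tumours. The groups did not overlap, which in this direction held for 1 of the 78 genes, against a background of 8.35% of all genes and 8.89% of those of similar level. WT tumours 1 and 2 were the WT tumours closest to the Tn range. The log2 fold change was -0.41 ± 0.09 (SE; edgeR adjusted p = 0.00393). Mrpl48 shares 8.68% of its exon bases with Rab6a, and a processed pseudogene, Mrpl48-ps, was counted apart at 1.58 to 2.15 CPM in Tn tumours and 2.13 to 3.13 CPM in WT tumours.

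Mrpl1, the protein of the mobile stalk beside the site where empty tRNAs leave, was at 24.7, 24.9 and 29.3 CPM in the lowest, median and highest Tn tumour, and at 26.1, 31.7 and 34.1 CPM in WT tumours. The groups overlapped, since Tn tumours 3 and 4 lay above WT tumour 2, and the log2 fold change of Mrpl1 came to -0.28 ± 0.08 (SE), with an edgeR adjusted p of 0.0135. Mrpl42 was at 47.1, 54.0 and 60.2 CPM in the lowest, median and highest Tn tumour, and at 53.2, 67.2 and 77.2 CPM in WT tumours, with WT tumours 1 and 2 inside the Tn range. Its log2 fold change was -0.27 ± 0.10 (SE), and its edgeR adjusted p of 0.0447 rose above 0.05 in 12 of 23 alternative analyses.

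The large and small subunits had similar medians. In the large subunit 15 of 51 genes were higher (29.4%) and 3 lower (5.88%) in Tn tumours, with a median log2 fold change of 0.17. In the small subunit 7 of 26 were higher (26.9%) and none was lower, with a median of 0.18, and 24 of the 26 fold changes were above 0. Among genes of similar level the background was 25.7% higher and 17.1% lower. Of the 46 proteins with a bacterial counterpart 12 were higher and 1 was lower, and of the 31 specific to mitochondria 10 were higher and 2 lower. The medians of these classes were 0.17 and 0.18. The difference between classes was not tested.

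**Figure D3:**
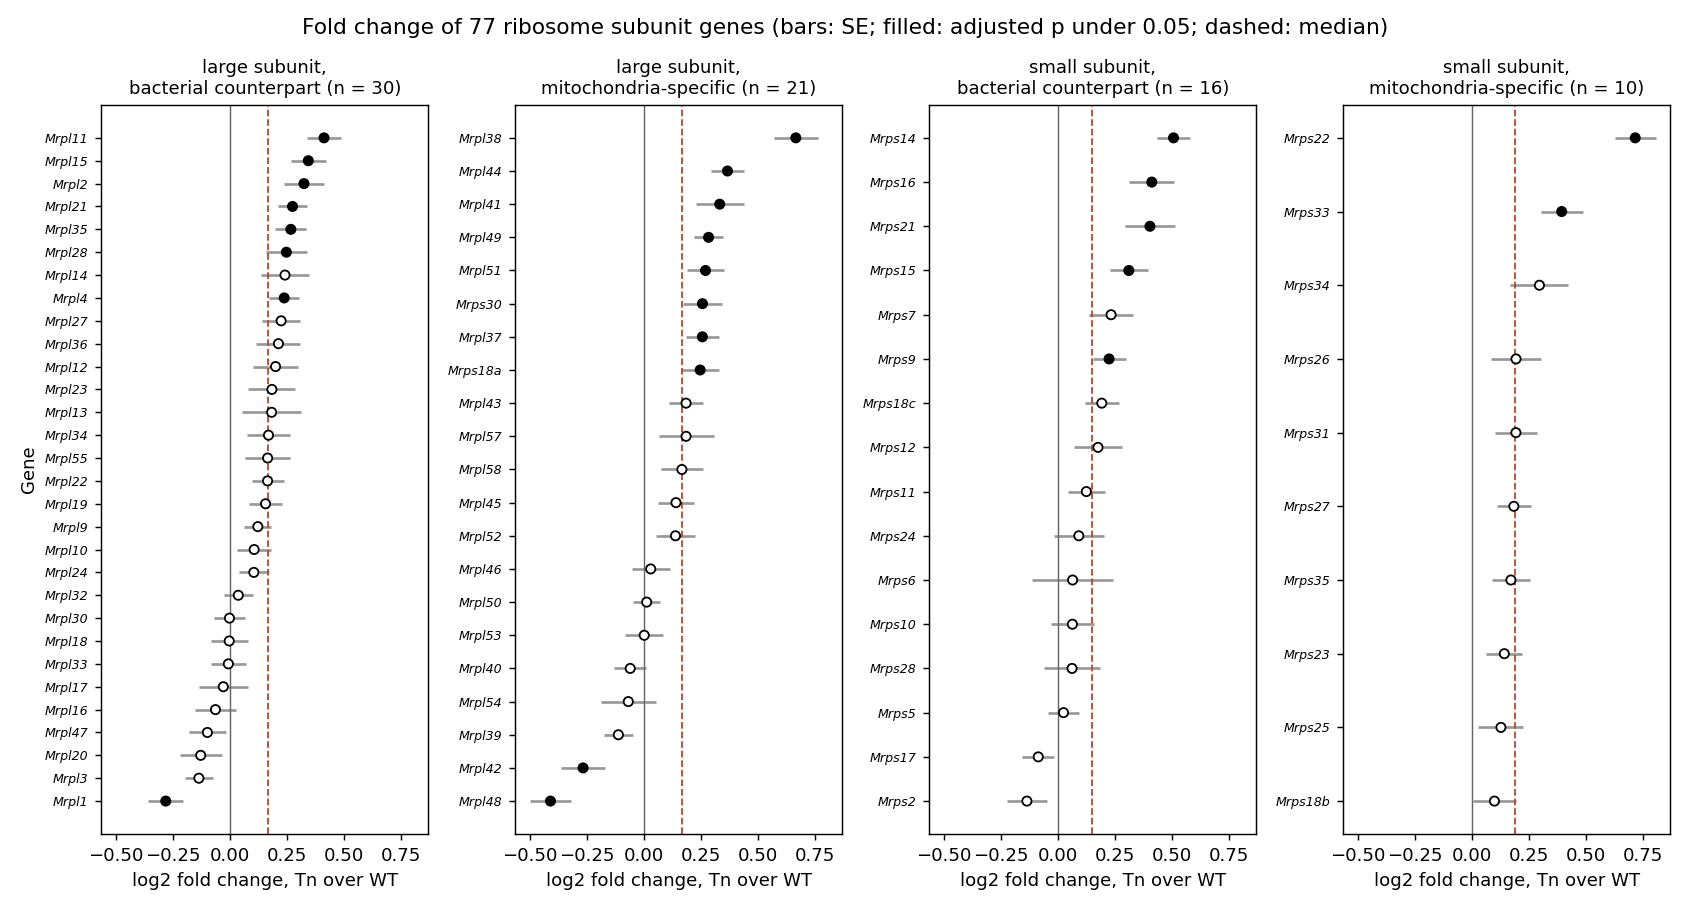
Log2 fold change, Tn over WT, of the 77 genes that encode ribosome subunits, split by subunit and by whether the protein has a bacterial counterpart. Points are genes with bars for the SE, filled where the adjusted p was under 0.05, and the dashed line is the median of each class. The medians lie between 0.15 and 0.19 in all 4 classes. The 3 genes that fell are in the large subunit, which holds 51 of the 77 genes, and a difference between subunits was not tested.

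Genes of single regions of the ribosome are few, and their counts were not tested against the background of 25.7% higher and 17.1% lower among genes of similar level. In the central protuberance, which faces the small subunit and holds 8 of the members, Mrpl38 rose and Mrpl48 fell, and the other 6 did not pass the test. Mrpl58, a peptidyl-tRNA hydrolase in this region that rescues stalled ribosomes, ranged from 24.2 to 27.2 CPM in Tn tumours and from 18.8 to 26.3 CPM in WT tumours (log2 fold change 0.17, edgeR adjusted p = 0.169). None of the 6 genes of the polypeptide exit site (Mrpl17, Mrpl22, Mrpl23, Mrpl24, Mrpl45 and Mrpl47) passed the test, with log2 fold changes from -0.10 to 0.18. Mrpl3, near the catalytic core and a disease gene in humans, ranged from 40.1 to 49.3 CPM in Tn tumours and from 45.8 to 52.3 CPM in WT tumours (log2 fold change -0.14, adjusted p = 0.102).

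In the small subunit, Mrps16, a disease gene in humans, was at 30.9, 37.0 and 44.2 CPM in the lowest, median and highest Tn tumour, and at 23.4, 28.4 and 32.5 CPM in WT tumours. The groups overlapped through Tn tumour 3 and WT tumour 6, and the log2 fold change was 0.41 ± 0.10 (SE; edgeR adjusted p = 0.00648). Mrps12, at the decoding centre, ranged from 19.3 to 23.1 CPM in Tn tumours and from 13.4 to 21.5 CPM in WT tumours, with 0.18 and an adjusted p of 0.201. Mrps30 sits in the large subunit despite its symbol, and Mrpl41 is a large subunit protein as well. Mrps30 ranged from 26.7 to 32.5 CPM in Tn tumours and from 21.4 to 29.9 CPM in WT tumours, and Mrpl41 from 16.8 to 25.5 CPM in Tn tumours and from 15.1 to 19.6 CPM in WT tumours. Their log2 fold changes were 0.26 and 0.33 (edgeR adjusted p = 0.0313 and 0.0257), and both lost the call in some alternatives, Mrps30 in 9 and Mrpl41 in 4 of 23.

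Mrps18a, Mrps18b and Mrps18c are paralogs related to a single bacterial protein. Mrps18c sits in its place in the small subunit and is counted as its counterpart, whereas Mrps18a in the large subunit and Mrps18b elsewhere in the small subunit are counted as specific to mitochondria. Mrps18a was at 36.3, 40.2 and 45.6 CPM in the lowest, median and highest Tn tumour, and at 30.0, 33.5 and 39.9 CPM in WT tumours, with a log2 fold change of 0.25 (edgeR adjusted p = 0.0342). Mrps18b ranged from 14.4 to 18.4 CPM in Tn tumours and from 13.4 to 18.3 CPM in WT tumours, with 0.10 and an adjusted p of 0.429. Mrps18c ranged from 14.5 to 16.2 CPM in Tn tumours and from 11.6 to 14.6 CPM in WT tumours, with 0.19 and an adjusted p of 0.0615. Only Mrps18a passed the test, and it lost the call in 12 of 23 alternatives. Whether the paralogs differ from each other was not tested. Mrps36, outside the ribosome, ranged from 10.9 to 15.03 CPM in Tn tumours and from 7.69 to 12.7 CPM in WT tumours, with a log2 fold change of 0.23 and an adjusted p of 0.151.

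Per kilobase of exon (RPKM, over the exon length in the deposited table), levels differed widely between genes whose proteins occur in the same particle. Mrpl54 stood at 61.6 ± 7.96 RPKM in Tn tumours and 64.6 ± 10.8 in WT tumours, Mrpl52 at 65.1 ± 6.44 in Tn and 59.2 ± 6.46 in WT, and Mrpl12 at 61.8 ± 5.88 in Tn and 53.7 ± 7.65 in WT (SD, n = 6 each). These had the highest means over all 12 tumours, followed by Mrpl2 (51.4 ± 5.90 in Tn, 41.0 ± 4.28 in WT) and Mrps21 (51.9 ± 5.42 in Tn, 39.2 ± 5.99 in WT). The lowest means over all 12 tumours were those of Mrpl48, at 2.12 ± 0.08 RPKM in Tn and 2.81 ± 0.38 in WT tumours, Mrpl23 (2.92 in Tn, 2.57 in WT), Mrps10 (3.24 in Tn, 3.10 in WT), Mrps25 (3.54 in Tn, 3.24 in WT) and Mrpl33 (3.68 in Tn, 3.70 in WT). The order differed within groups: in WT tumours Mrpl23 was below Mrpl48, Mrps22 (3.56) and Mrps30 (3.66) were below Mrpl33, and Mrpl28 (39.7) was above Mrps21. The order of Mrpl54, Mrpl52 and Mrpl12 by their means differed between Tn and WT tumours, and it was not tested. The 5 low genes have annotated exons of 4883 to 8152 bases in all, against 739 to 1532 bases for the 5 high genes, and a long annotated exon that is little used lowers this value. Mrps25 shares 69.8% of its exon bases with Nr2c2, and strand was not used in the counting, so its place is uncertain.

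The fold change of each gene was set beside that of its neighbours on the chromosome. Members lie on 17 chromosomes. For each, the median log2 fold change of the other tested genes within 5 Mb was taken, over 21 to 269 genes, and these medians ran from -0.30 to 0.32. Of the 78 genes, 56 lay above their neighbours, 19 of them among the 22 that rose, and the median difference was 0.10. The share of other genes above their neighbours was not computed. Neighbours were of any level, and genes of the members' level had a median of 0.06 against 0.01 over all genes. A gene called higher tends to lie above its neighbours through the call itself, so the 19 are no separate result. With WT tumours 1 and 2 left out, 45 of 78 lay above.

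The genes differed in this respect. Mrps22, at 0.72, stood among 77 neighbours with a median of -0.03. Mrpl38, at 0.67, stood among 199 with a median of 0.23, and Mrpl15, at 0.34, among 29 with a median of -0.04. Mrpl11, Mrpl21 and Mrpl49 rose on chromosome 19 in stretches whose neighbours had medians of 0.31 to 0.32 and whose windows share genes, and Mrpl21 and Mrpl49 were below these. Mrpl16, on the same chromosome with neighbours at 0.31, had -0.06. Mrpl42, at -0.27, lay among neighbours at -0.30 on chromosome 10, while Mrpl48, at -0.41, lay among neighbours at -0.04 on chromosome 7.

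**Figure D4:**
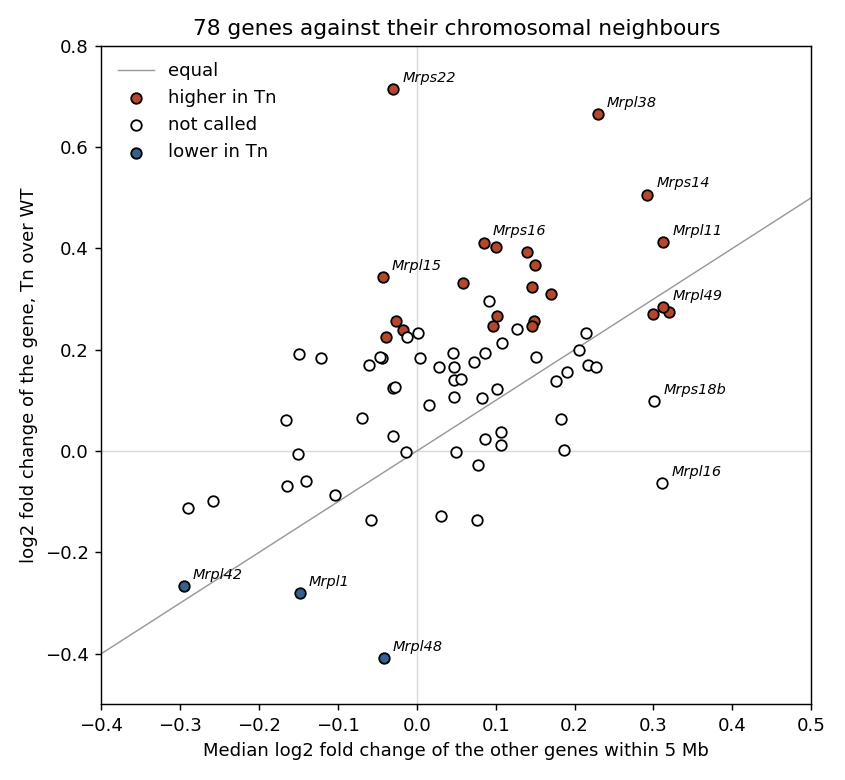
Log2 fold change, Tn over WT, of each of the 78 genes (vertical) against the median log2 fold change of the other tested genes within 5 Mb (horizontal). Filled points passed the test (red higher, blue lower in Tn tumours), and the line marks equal values. Of the 78 genes 56 lie above the line, Mrps22, Mrpl38 and Mrpl15 farthest above it. Mrpl21 and Mrpl49 lie just below it, and Mrpl16 and Mrpl48 farthest below it. No such count was made for other genes.

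Other lists of the pathway were compared by their counts. Of 5 further ribosome proteins with other symbols, 3 rose and none fell: Dap3 (log2 fold change 0.36), a small subunit GTP-binding protein first named for cell death, Chchd1 (0.29) and Gadd45gip1 (0.25). Ptcd3 and Aurkaip1 did not pass the test. Of 26 genes for assembly of the mitochondrial ribosome and modification of its RNA, 7 rose and 3 fell, with a median of 0.16. Mterf3, Mpv17l2 and Mrm1, the methyltransferase of the large ribosomal RNA, rose by 0.40, 0.43 and 0.44, and Noa1, a GTPase of small subunit assembly, fell by 0.61 on the log2 scale.

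The remaining steps of mitochondrial gene expression had medians near or below 0. Of 16 translation factors none rose and 1 fell, the elongation factor Gfm1 (-0.45), with a median of -0.02. Of 21 genes for charging mitochondrial tRNAs 5 rose and 5 fell, with a median of 0.00; Mars2 (-0.73) and Nars2 (-0.55) fell and Pars2 (0.35) rose. Of 18 factors of mitochondrial DNA and RNA 2 rose and 3 fell, with a median of -0.08; the DNA-binding protein Ssbp1 rose by 0.25 while the DNA polymerase Polg had -0.34. Of 20 protein import genes 2 rose and 2 fell, with a median of 0.01.

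Of 12 regulators of mitochondrial biogenesis 1 rose and 4 fell, with a median of -0.24, and 2 fell when Tn tumour 1, 2 or 5 or WT tumour 1, 3, 4, 5 or 6 was left out. Max, the partner of MYC, rose by 0.40, and the GABP subunits Gabpa (-0.33) and Gabpb2 (-0.39) and the factor Yy1 (-0.19) were among those that fell.

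Of 13 mRNAs made in mitochondria none rose and 5 fell, with a median of -0.41, and 3 fell when Tn tumour 3, Tn tumour 4, WT tumour 3 or WT tumour 6 was left out. Among those that fell, mt-Co1, a subunit of cytochrome oxidase, had 4183 ± 1087 CPM in Tn tumours and 6350 ± 1370 CPM in WT tumours (SD, n = 6 each; log2 fold change -0.60, edgeR adjusted p = 0.0222). The mitochondrial ribosomal RNAs mt-Rnr1 and mt-Rnr2 did not pass the test (0.49 and 0.19), and poly(A) selection limits what their counts can show. The respiratory chain subunits made from nuclear genes had a median of 0.20, with 28 of 79 higher and 2 lower, Ndufa4 rising most clearly (0.98). The cytosolic ribosomal proteins had a median of 0.17, with 32 of 83 higher and 4 lower. Both medians lie close to the 0.17 of the mitochondrial ribosomal protein genes. WT tumours 1 and 2 were also the lowest tumours in the mean log2 CPM of the respiratory list, at 5.84 and 5.91, where Tn tumours ran from 6.20 to 6.36 and WT tumours from 5.84 to 6.32. They were the lowest as well for cytosolic ribosomal proteins (8.09 and 8.11) and for protein import genes (5.84 and 5.91). This did not hold for every list: among mitochondrial DNA and RNA factors Tn tumour 2 was lowest (3.99) and WT tumour 1 highest (4.25). Of 16 proliferation genes none rose and 10 fell, with a median of -0.37.

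**Figure D5:**
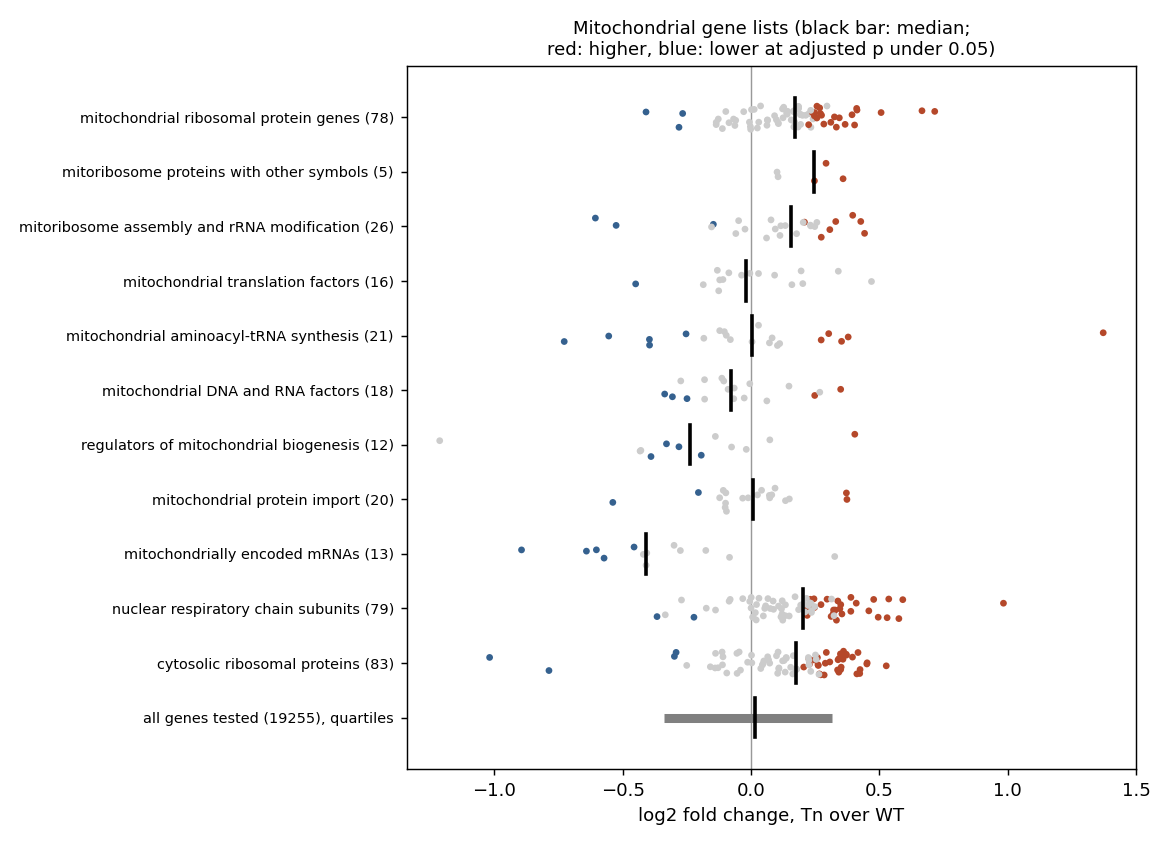
Log2 fold change, Tn over WT, of the genes of each list (points, red higher and blue lower at an adjusted p under 0.05, grey not passing), with a black bar at the median and, in the bottom row, the quartiles of all 19255 genes tested. The medians are 0.17 for the mitochondrial ribosomal protein genes, 0.20 for nuclear respiratory chain subunits, 0.17 for cytosolic ribosomal proteins and -0.41 for mitochondrially encoded mRNAs.

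Markers of other cell types differed between the groups. All 5 T cell markers rose, with a summed level of 22.2 to 267 CPM in Tn tumours and 2.59 to 10.2 CPM in WT tumours. All 4 NK cell markers rose (10.2 to 43.2 CPM in Tn, 1.196 to 5.67 CPM in WT), as did 4 of 6 macrophage markers (1066 to 3345 CPM in Tn, 703 to 1094 CPM in WT). All 3 B cell markers tested passed the test upward through Tn tumour 4, and no B cell marker parted the groups: Cd79a was at 167 CPM in Tn tumour 4 and at 0.20 to 1.67 CPM in the other Tn tumours, against 0.0584 to 0.678 CPM in WT tumours. Of 5 fibroblast markers 4 fell and 1 rose (2154 to 3285 CPM in Tn, 5153 to 13389 CPM in WT). Endothelial markers fell in 3 of 4 cases (157 to 296 CPM in Tn, 228 to 402 CPM in WT), and so did 3 of 4 pericyte markers (79.5 to 242 CPM in Tn, 287 to 586 CPM in WT). Of 5 markers of mammary carcinoma epithelium, which check the labelled tumour type, 1 fell (1962 to 3381 CPM in Tn, 2120 to 4461 CPM in WT), and all were detected in every tumour. All 5 had a log2 fold change under 0, with a median of -0.29. No marker passed the test among those of muscle (2.44 to 117 CPM in Tn, 3.17 to 53.0 CPM in WT), neutrophils (29.1 to 173 CPM in Tn, 30.9 to 114 CPM in WT) and adipocytes (30.4 to 291 CPM in Tn, 21.3 to 1158 CPM in WT). Of 4 keratinocyte markers tested 1 passed the test, Krt16, through Tn tumour 6 at 552 CPM, with 0.43 to 1.21 CPM in the other Tn tumours and 0.66 to 3.80 CPM in WT tumours (the list at 16.7 to 3488 CPM in Tn, 51.9 to 816 CPM in WT). Counts of 0 were found, among others, for Ms4a1 in 1 WT tumour, Ckm in 1 WT tumour, Myh4 in 1 Tn tumour, and Krt1 in 4 Tn tumours and 1 WT tumour. The part of these cell types in the values of the mitochondrial ribosomal protein genes was not tested. With Tn tumours 4 and 6 and WT tumour 6 left out, 25 of the 78 genes were higher, 1 was lower, and the median was 0.22. Over all genes tested, 3313 were then higher and 2791 lower.

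The genes whose levels, after subtraction of group means, were most like the mean of the members over the 12 tumours were taken from 13569 genes with a mean of at least 1 CPM outside the lists. They were Fmc1 (Pearson r = 0.961), Mecr (0.955), Glrx5 (0.954), Acads (0.924), Snrpd3 (0.923), Wdr83os (0.916), Mdh2 (0.912), Gm12350 (0.911), Coa6 (0.907) and Coq7 (0.906). Fmc1, Mecr, Glrx5, Acads, Mdh2, Coa6 and Coq7 encode mitochondrial proteins, among them the enoyl reductase of mitochondrial fatty acid synthesis (Mecr), the malate dehydrogenase of the citric acid cycle (Mdh2) and a hydroxylase of coenzyme Q synthesis (Coq7). The share of genes for mitochondrial proteins among the 13569 was not computed. Of the 10 genes 1 passed the test between groups, Wdr83os (log2 fold change 0.42, edgeR adjusted p = 0.0024), against 36.8% of all genes tested. The r values rest on 12 tumours that share libraries and scaling with the members, and they are given as a description.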

How the data were processed

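The authors deposited raw counts per gene, made with featureCounts 2.1.1 over exons of Ensembl 112 on GRCm39 without a strand setting, with both ends of a pair required to map, per the file headers. Reads were trimmed with fastp 0.23 and aligned with STAR 2.7.11a, per the submitters' processing notes. The deposited exon lengths, in bases, were used for RPKM. Total counts were 113575859 to 156880766 per tumour. All pairs of libraries of a group differed beyond sampling noise (lowest chi-square over degrees of freedom 41.4). The labels name 1 batch, and call the 6 tumours of a group separate tumours.

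Of 57186 identifiers, 56630 were named with GENCODE vM39, and 6 Mrpl or Mrps pseudogenes were left out of the members. Counts of all 12 tumours were fitted with edgeR 4.0.16 (R 4.3.3) with TMM scaling, filterByExpr by group and a robust quasi-likelihood test of Tn over WT, adjusted by Benjamini-Hochberg over 19255 genes. The biological coefficient of variation was 0.358. SEs were taken as log2 fold change over the root of F. The CPM use TMM factors, and log2 CPM have a prior count of 2. The script was tested on simulated counts, with changes placed in genes of at least 1 CPM. It recovered 2% of 50 genes changed 1.2-fold and 38% of 50 changed 1.5-fold. Those genes were not chosen to vary as little as the members, so these shares do not give the recovery for members. A member that did not pass the test is not shown to be unchanged.

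All members could be named. Values are given for the 8 genes with the smallest p in each direction, where only 3 fell, and for genes with a known role, per length for the 5 highest and 5 lowest, from each list for up to 4 genes with the smallest p, and for the 10 genes most like the members. The members, lists, rules and alternatives were chosen with earlier results of these data known. Alternatives were RLE, upper-quartile and library-total scaling, scaling without mitochondrially encoded and ribosomal RNA genes, DESeq2 1.42.0, limma 3.58.1 voom, other filters, a stricter threshold, a replicate block, and leaving out tumours. Genes that share exon bases with another gene are uncertain, since strand was not used: 33 of the 78 do, and Mrps34 (77.8%) and Mrps25 (69.8%) share most of theirs. The values of 1 marker gene are not reported here.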

Additional observations from a re-analysis of the deposited data

Results flagged for a closer look

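Each of the 78 genes was checked within each group of 6 tumours, with the mean level of the members added, 158 groups of values in all, for a tumour whose gap to the nearest other was a larger part of the group's range than Dixon's 95% critical value for 6 values. This was met 12 times, and chance gives about 1 in 20 groups. Tn tumour 6 was the highest of its group for Mrps34 (18.4 CPM, the other Tn tumours at 11.1 to 12.4), Mrpl55 (18.6 CPM, others 14.1 to 15.6) and Mrpl22 (23.1 CPM, others 19.6 to 20.4). Tn tumour 3 was the highest for Mrpl1 (29.3 CPM, others 24.7 to 26.2) and Mrpl32 (25.9 CPM, others 22.1 to 23.5), and Tn tumour 1 for Mrpl14 (48.2 CPM, others 42.1 to 44.0). Tn tumour 2 was the lowest for Mrpl34 (23.6 CPM, others 26.3 to 27.2) and Tn tumour 5 for Mrpl36 (23.2 CPM, others 26.1 to 27.8). WT tumour 1 was the lowest for Mrps25 (15.5 CPM, other WT tumours 21.5 to 24.7) and WT tumour 2 for Mrpl32 (20.1 CPM, others 22.8 to 23.7). WT tumour 6 was the highest for Mrpl19 (31.2 CPM, others 23.9 to 26.1) and Mrps27 (24.7 CPM, others 19.3 to 20.7).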

How the results depend on the processing

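Over the alternatives with a threshold of 0.05, members higher in Tn tumours numbered 18 to 27 and members lower 1 to 4. Over all genes tested, these settings gave 2998 to 4113 higher and 2791 to 3844 lower. At an adjusted p under 0.01, 11 members were higher and 1 was lower, with 2109 and 1916 genes over all. Without Tn tumours 4 and 6 and WT tumour 6, 1 member was lower. Leaving out each tumour in turn gave 3210 to 3778 genes higher and 2833 to 3283 lower over all genes tested. Among the members it gave 19 to 27 higher, 2 to 3 lower and a median log2 fold change of 0.14 to 0.22. It also gave 3 to 7 mitochondrially encoded mRNAs lower, 2 to 4 biogenesis regulators lower, 1 to 2 protein import genes and 1 to 2 nuclear respiratory genes lower, and 0 to 1 translation factors, 0 to 1 mitochondrial ribosomal RNAs and 1 to 2 DNA and RNA factors higher. Upper-quartile scaling gave a median of 0.12. Of 768 values of 32 named genes, 691 kept their direction and side of the threshold, 73 lost the call, 4 gained it and none changed direction. Of the 22 genes called higher, 16 kept the call in all 23 alternatives at 0.05. Mrpl28 lost it in 15, Mrps18a in 12, Mrps30 in 9, Mrps9 in 6, Mrpl41 in 4 and Mrps15 in 1. Mrpl48 kept its call in all, Mrpl1 lost it in 1 and Mrpl42 in 12. The causes were not tested. The labels number the tumours and state no pairing. Same-numbered deviations correlated at -0.125 to 0.158, which cannot show whether tumours were paired. With the replicate block 19 members were higher and 2 lower, with 2998 and 2878 genes over all. With at least 700 counts per member and tumour, the spread between tumours, not counting error, limits these values.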
